A study of Homo sapiens with 16 samples.

Results

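The genes that answered the YES1 inhibitor in the same direction and by a similar amount in MDA-MB-231 and SUM159 cells are described here, 2570 of the 17647 genes tested. Levels were modelled over all 16 libraries with cell line as a covariate, and the treatment effect was the mean of the changes in the 2 lines. A gene was counted as shared where it was called at an edgeR adjusted p under 0.05 for the mean effect and in each line, had the same direction in both, and had a 95% interval of the difference between lines within 0.5 log2 of 0. Because the 2570 genes were picked on these values, their changes are given as a description, and no p-value is repeated for them. Of these genes, 915 were higher and 1655 lower under the inhibitor.

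Both lines derive from human triple-negative breast cancer and carry the wild-type label. SUM159 is written SUM159PT in titles. Cells of either line received the solvent DMSO (0 uM inhibitor) or 8 uM YES1i (CH6953755) for 48 h, which makes 4 groups of 4 libraries. Plating came 1 day before dosing. MDA-MB-231 grew in RPMI and SUM159 in Ham/F12 medium, so cell line and medium cannot be told apart. The series text speaks of transfection with these agents, while the treatment protocol says that cells were treated. It also calls the 4 libraries of a group technical replicates, so p-values and errors then cover no more than the spread among the libraries of a group, which may be technical.

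YES1 is a Src family tyrosine kinase at the inner face of the plasma membrane, which passes signals from growth factor receptors and integrins to growth and adhesion pathways. In dividing cells, E2F factors switch on genes for DNA replication at the entry into S phase. Later in the cycle, B-MYB, FOXM1 and the MuvB core switch on genes for mitosis, and when cells stop cycling the DREAM complex holds both sets low. In bulk RNA, fewer cells in cycle and less of such RNA per cell cannot be told apart.

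Total counts ran from 15876171 to 36261542 per library, at which a count of 0 allows, at 3 counts, up to 0.0859 to 0.194 CPM (counts per 1000000 counts of the library scaled with edgeR's TMM factors), a limit for counting error only. ESR1 and PGR stayed under 1 CPM in all libraries, ERBB2 lay between 97.5 and 125 CPM, and VIM, KRT8 and KRT18 were present in every library, while CDH1 had no count in 8 libraries, all of SUM159. Among 22 markers of blood, vessel, fibroblast and fat cells, 13 to 15 stayed below 1 CPM in every library of a group. Summed, they gave 83.5 to 88.8 CPM in the MDA-MB-231 controls and 82.3 to 92.1 after treatment. The SUM159 sums were 748 to 880 and 771 to 939, most of it COL1A1. In MDA-MB-231, the share of counts from mitochondrial ribosomal RNA was 0.644% ± 0.0283 (SD, n = 4) in controls and 1.33% ± 0.0502 in treated libraries. The SUM159 shares were 0.731% ± 0.0749 and 1.34% ± 0.0977. The mean difference was 0.648 percentage points (exact permutation within lines, two-sided p = 0.000408, the smallest that 4900 regroupings can give). Its part in the changes below was not tested. The second YES1i library of SUM159 lay farthest from its own group, at a mean root-mean-square distance of 0.298 log2 against 0.183 to 0.262 for the other 15 libraries. Without it, 966 genes were shared and higher and 1765 shared and lower.

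The kinase's own transcript was slightly lower on average. Gene positions are those of the deposited table, on hg38. YES1 (chr18:721588-812546) was at 93.6, 89.1, 98.2 and 96.2 CPM in the MDA-MB-231 DMSO libraries and 87.4, 96.3, 90.3 and 99.0 under YES1i, and at 104, 101, 98.5 and 107 and 79.9, 94.9, 95.5 and 85.3 CPM in SUM159. The groups overlapped in MDA-MB-231 and lay apart in SUM159, where every treated library was below every control. The mean change was -0.11 ± 0.04 log2 (edgeR adjusted p = 0.0232), and the call was lost in 12 of 26 other settings of the processing. None of the 6 tested Src family kinases was shared. SRC, the founding member of the family, was called in MDA-MB-231 alone, at 0.23 log2 (edgeR adjusted p = 0.00451). In SUM159 SRC was at 0.07 log2 with overlapping groups (edgeR adjusted p = 0.399), and the difference between lines was not called (edgeR adjusted p = 0.193). FRK, an epithelial relative present at low level, rose by 1.12 ± 0.18 log2 on average (edgeR adjusted p = 4.33e-06) and was called in each line. LYN and FYN moved in different ways in the 2 lines, with a difference, MDA-MB-231 minus SUM159, of 0.59 log2 for LYN (edgeR adjusted p = 2.38e-05) and -0.35 for FYN (edgeR adjusted p = 0.00277). CSK, the kinase that holds Src kinases in check and a gene singled out after its values were seen, was shared and lower, at -0.35 log2 in MDA-MB-231 and -0.51 in SUM159.

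Over all genes, the mean effect was called for 9887, 56.0% of those tested, 5223 of them higher (29.6%) and 4664 lower (26.4%). Treatment was called for 8629 genes in MDA-MB-231 (48.9%) and 9105 in SUM159 (51.6%), and 5572 were called in both. Direction agreed for 4660 of these and was opposite for 912 (5.17% of tested genes). The 2570 shared genes were 29.8% of the calls in MDA-MB-231, 28.2% of those in SUM159 and 14.6% of all tested genes. Of the 9887 genes with a called mean effect, 4497 were called in 1 line alone and 338 moved in opposite directions, so that a called mean effect by itself did not make a gene shared. Across the 17647 genes, the changes in the 2 lines had a Pearson correlation of 0.367 and a Spearman correlation of 0.43, and across the 10041 genes of at least 5 CPM in each line of 0.57 and 0.573. Genes are not independent replicates, and these values describe the 16 libraries only.

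**Figure D1:**
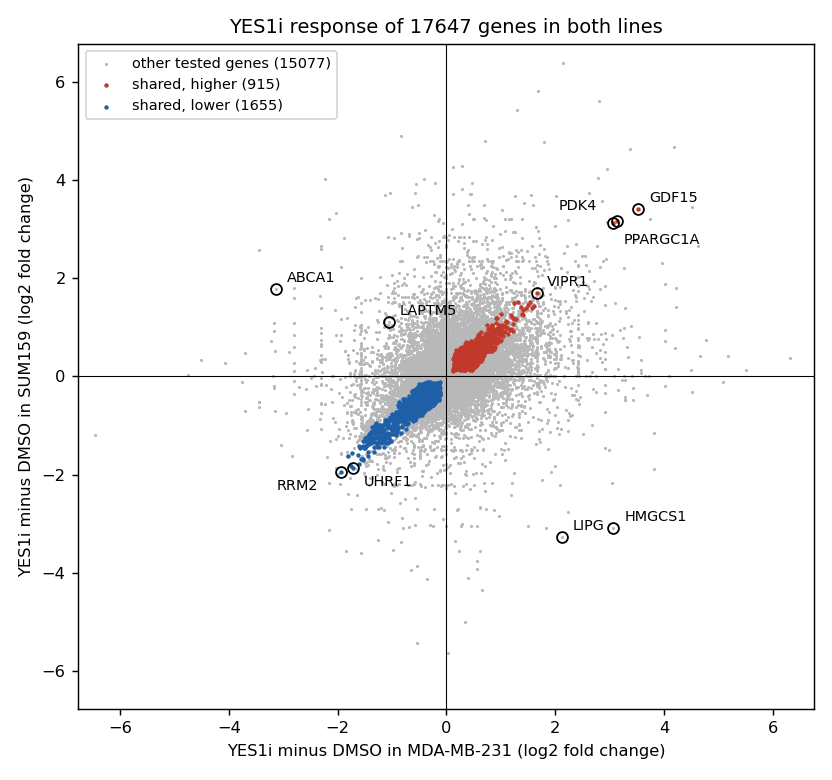
Change under YES1i in MDA-MB-231 (x axis) and in SUM159 (y axis), as log2 fold change, 1 point per tested gene. Red and blue mark the 915 shared higher and 1655 shared lower genes along the diagonal, and open circles mark 10 genes named in the text, among them 4 that moved in opposite directions.

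Shared falls outnumbered shared rises, and a larger part of them reached 1 log2, while the medians were close in size. The median mean change was -0.42 log2 for shared lower genes and 0.40 for shared higher genes, beside 0.05 over all tested genes. At least 1 log2 was reached by 141 of the 1655 falls and 36 of the 915 rises. The split depended on scaling: 35.6% of shared genes were higher with TMM factors and 48.2% with upper quartile factors. Upper quartile factors also moved the median over all tested genes to 0.11 log2, and the sizes of falls and rises were not compared under them. Within the shared genes the 2 lines differed by a median of 0.11 log2, and neither line led throughout, since MDA-MB-231 had the larger change in 514 of the 915 rises and 681 of the 1655 falls. In 2188 of the 2570, YES1i and DMSO libraries did not overlap in either line (737 of the rises and 1451 of the falls). Such separation in 1 direction was seen in 22.3% of all tested genes. That contrast follows largely from the rule, which asks for a call in each line, so it is no further evidence. The class leaned to well expressed protein-coding genes, 96.2% of the rises and 99.1% of the falls against 78.2% of tested genes. Median levels were 47.1 and 63 CPM, against 16.1 for all tested genes. The lean to high levels follows in part from the rule, since genes of low count seldom have so narrow an interval of the difference. The median SE of that difference was 0.098 and 0.092 log2, against 0.150 for all tested genes. How far the lean to protein-coding genes follows from the rule too was not tested.

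The share of genes inside the bound was lower at larger changes, and lower for rises than for falls of one size above 0.25 log2. The first of these follows in part from the rule, since changes of one sign that average under 0.25 log2 cannot differ by more than 0.5. Among genes called in both lines in the same direction, 909 of 1071 falls of 0.25 to 0.5 log2 were within the bound and 126 of 324 falls of 1 to 1.5 log2. For rises the counts were 516 of 680 and 30 of 348. The rises of 1 to 1.5 log2 also had lower levels, a median of 5.65 CPM against 31.3 for falls of that size, and wider errors of the difference, a median SE of 0.286 log2 against 0.125. Of 296 genes at least 2-fold higher in each line, 27 were shared, and of 260 at least 2-fold lower, 121. The bound itself sets how many genes are counted. CCDC137, a nucleolar protein gene, was just inside it, with a difference of 0.27 log2 and an interval that ended at 0.4995; it was still shared in 12 of 25 other settings. RIOX1, a ribosomal oxygenase gene, was just outside, at 0.28 with an interval that passed 0.5 by less than the last digit kept.

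**Figure D2:**
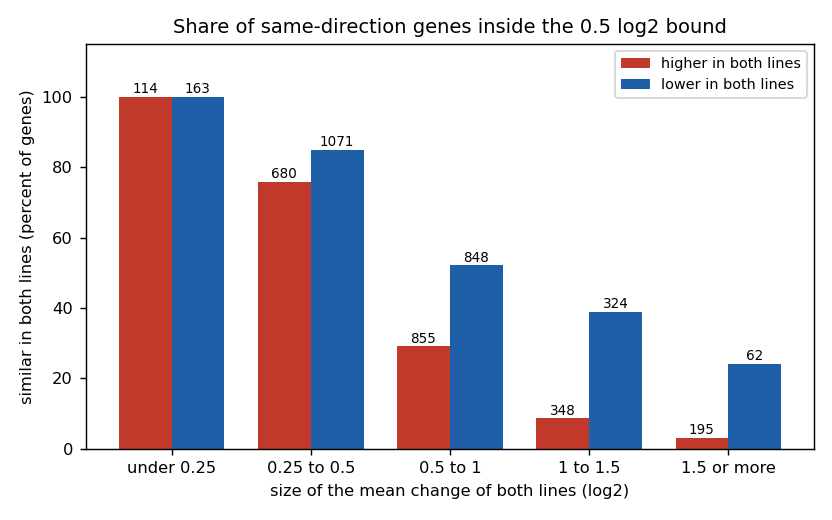
Percent of genes called in both lines in the same direction whose change was similar, by size of the mean change (x axis, log2). Red bars are genes higher and blue bars genes lower under YES1i, with the number of genes in each bin above the bar. The percent is 100% in the smallest bin, where the bound leaves no room for a larger difference, and falls to 3.08% of rises and 24.2% of falls of 1.5 log2 or more.

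DNA replication genes fell in both lines without exception. All 48 tested members of the list were called lower in each line, from -1.75 to -0.64 log2 for the mean effect, and 33 of the 48 were shared, beside 26.4% of all tested genes called lower and 9.38% shared and lower. Their median change was -1.15 log2 in MDA-MB-231 and -1.27 in SUM159, with 0.03 and 0.02 over all genes. CDC45 (chr22:19479459-19520612), part of the helicase that opens the double strand, went from 40.5, 41.7, 44.3 and 42.4 CPM to 12.8, 13.6, 14.4 and 14.4 in MDA-MB-231 and from 50.1, 50.4, 55.5 and 46.4 to 13.6, 15.2, 14.8 and 14.9 in SUM159. No treated library reached a control, and the mean change was -1.70 ± 0.05 log2. GINS2, another part of that helicase, fell from 30.4 ± 1.40 CPM (SD, n = 4) to 10.5 ± 1.11 in MDA-MB-231 and from 27.3 ± 1.28 to 8.38 ± 0.761 in SUM159. POLE and ORC6 were picked for a small difference between lines, so their near-identical changes are a description. POLE, the catalytic subunit of DNA polymerase epsilon, changed by -1.02 log2 in MDA-MB-231 and -1.02 in SUM159, with an interval of the difference of -0.16 to 0.15. ORC6, a subunit of the origin recognition complex, changed by -1.23 and -1.23, with an interval of -0.21 to 0.21.

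Most transcripts of genes that supply DNA building blocks fell with them. RRM2 (chr2:10120698-10131419), the small subunit of ribonucleotide reductase, had the largest shared fall among genes of at least 5 CPM in each line whose groups lay apart. It was at 120.1, 117, 116 and 115 CPM in the MDA-MB-231 controls and 30.0, 28.0, 33.0 and 31.4 under YES1i. In SUM159 it was at 141, 119, 113 and 126 CPM and 30.1, 39.6, 33.8 and 25.9. Levels in the 2 lines were alike before and after treatment, and the change was -1.93 ± 0.09 log2 in MDA-MB-231 and -1.95 ± 0.09 in SUM159. TYMS, thymidylate synthase, fell from 76.1 ± 1.40 CPM (SD, n = 4) to 22.9 ± 4.14 in MDA-MB-231 and from 36.0 ± 2.15 to 12.3 ± 0.993 in SUM159. In all, 9 of the 12 tested members of the deoxynucleotide list were shared and lower. EXO1, an exonuclease of recombination and mismatch repair, fell by 1.62 log2, and 11 of 27 tested recombination and Fanconi anaemia genes were shared, with 26 of the 27 called lower for the mean effect.

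Chromatin genes of dividing cells followed the same course, with 13 of 13 lower in each line and 9 shared. UHRF1 (chr19:4903080-4962154), which brings the maintenance DNA methyltransferase to newly copied DNA, went from 223, 230.4, 226 and 214 CPM to 62.4, 58.2, 79.4 and 71.2 in MDA-MB-231. In SUM159 it went from 108, 124, 137 and 107 CPM to 34.8, 29.3, 32.5 and 34.0. The control level of MDA-MB-231 was higher, while the changes were -1.71 and -1.87 log2. ESCO2, the acetyltransferase that locks cohesin onto sister chromatids, fell by 1.79 log2, and 13 of 17 condensin and cohesin genes were shared and lower. E2F1, which itself drives replication genes, fell from 127 ± 2.79 CPM (SD, n = 4) to 55.5 ± 7.38 in MDA-MB-231 and from 47.7 ± 3.49 to 18.6 ± 2.75 in SUM159. Among 14 cell cycle transcription factors, 12 were called lower for the mean effect, and 6 were shared. These 6 were E2F1, E2F3, E2F8, FOXM1, LIN9 and TFDP1, and with upper quartile scaling the count was 3.

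The promoter of UHRF1 is printed because replication and chromatin genes fell together and it holds the word bound by E2F factors. It covers the 250 bases before the start, from RefSeq, GRCh38.p14, chr19:4909251-4909500, plus strand, with TTCCCGC and CCAAT, on either strand, in capitals. The words lie at -104, -86 and -14, counted from the base before the start as -1.
UHRF1: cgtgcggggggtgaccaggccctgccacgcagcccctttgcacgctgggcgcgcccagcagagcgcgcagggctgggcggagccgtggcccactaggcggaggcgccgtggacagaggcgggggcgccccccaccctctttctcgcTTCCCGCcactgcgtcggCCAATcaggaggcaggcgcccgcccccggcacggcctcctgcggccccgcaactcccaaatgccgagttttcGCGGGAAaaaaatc
Either TTGGCGC or TTCCCGC stood, on either strand, in 26 of the 40 promoters (300 bases, 250 before and 50 after the start) that RefSeq's table gave for the 48 replication genes. They stood in 308 of 1374 promoters of shared lower genes (22.4%), in 1628 of the 11484 found for tested genes (14.2%; 65.1% of tested genes had one) and in 2547 of all 27305 promoters of the table (9.33%). A match is a string of letters and shows no binding.

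Mitotic genes formed the other large block of shared falls, with a tilt toward MDA-MB-231. Of 42 kinetochore and spindle checkpoint genes, 41 were called lower for the mean effect and 14 were shared, and for 18 the difference between lines was called. The median change of the list was -1.32 log2 in MDA-MB-231 and -0.98 in SUM159. SPC25 (chr2:168834132-168913371), a subunit of the NDC80 complex that grips microtubule ends, was among the most alike, at 29.8, 29.2, 29.7 and 30.0 CPM and 8.94, 10.3, 8.78 and 10.7 under YES1i in MDA-MB-231. In SUM159 it was at 19.8, 19.4, 18.9 and 19.6 CPM and 5.54, 6.04, 7.46 and 6.62 under YES1i. The changes were -1.62 ± 0.09 and -1.60 ± 0.10 log2.

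AURKA (chr20:56369389-56392337), the Aurora kinase of centrosomes and spindle poles, had nearly equal changes from unequal starting levels. It was picked for a small difference between lines. It went from 220.0, 218, 221 and 208 CPM to 76.2, 87.4, 97.2 and 84.1 in MDA-MB-231 and from 87.5, 76.6, 76.9 and 76.0 to 29.7, 30.8, 35.1 and 30.6 in SUM159. The changes were -1.33 ± 0.06 and -1.33 ± 0.07 log2, and the interval of the difference ran -0.19 to 0.19. PKMYT1, the kinase that keeps CDK1 inactive until mitosis, fell by 1.63 log2 on average; it was still shared in 15 of 25 other settings. Among 19 mitotic cyclin and kinase genes, 18 were called lower for the mean effect and 10 were shared.

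CDC20 (chr1:43358955-43363203), the activator of the anaphase-promoting complex, fell from 234, 252, 241 and 240.1 CPM to 74.2, 74.5, 88.6 and 79.4 in MDA-MB-231. In SUM159 it fell from 237, 230.3, 232 and 236 CPM to 90.4, 84.7, 96.2 and 80.8. Control and treated levels were close between lines, and all treated libraries lay under all controls. Of the 12 anaphase and chromosomal passenger genes, 12 were lower in each line and 7 were shared. DLGAP5, a protein that bundles spindle fibres near chromosomes, fell by 1.44 log2 in MDA-MB-231 and 1.33 in SUM159. WDR62, a spindle pole protein, fell by 1.80 and 1.62. HAUS8, a subunit of the augmin complex that branches spindle microtubules, fell by 1.45 and 1.30. Of 27 spindle genes, 12 were shared and lower and 1 was shared and higher, and of 16 centriole and centrosome genes 8 were shared and lower.

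The promoters of CDC20 and DLGAP5 are shown because spindle and anaphase genes moved together and both hold the CCAAT box and the word TTTGAA of the cell cycle genes homology region. Each is the 250 bases before the start, from RefSeq, GRCh38.p14, with these words on either strand in capitals. CDC20 is at chr1:43358731-43358980, plus strand, with words at -178, -100, -65 and -55. DLGAP5 is at chr14:55191586-55191835, minus strand, with words at -138, -109, -87 and -22.
CDC20: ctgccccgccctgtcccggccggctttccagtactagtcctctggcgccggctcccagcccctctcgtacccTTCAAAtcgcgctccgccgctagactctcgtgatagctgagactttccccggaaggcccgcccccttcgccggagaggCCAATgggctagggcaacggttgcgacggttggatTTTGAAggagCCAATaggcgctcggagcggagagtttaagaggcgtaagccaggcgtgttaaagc
DLGAP5: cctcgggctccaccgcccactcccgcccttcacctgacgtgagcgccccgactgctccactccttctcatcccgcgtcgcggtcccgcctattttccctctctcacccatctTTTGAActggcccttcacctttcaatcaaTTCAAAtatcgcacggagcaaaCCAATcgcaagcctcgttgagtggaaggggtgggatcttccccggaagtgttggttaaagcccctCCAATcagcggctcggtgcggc
CCAAT and TTTGAA stood together in 16 of the 25 spindle gene promoters found, in 5 of 10 for anaphase genes and 10 of 35 for kinetochore genes. Both stood in 465 of 11484 promoters found for tested genes (4.05%), in 1661 of all 27305 of the table (6.08%) and in 92 of 1374 for shared lower genes (6.7%). Of the 40 replication gene promoters, 22 held CCAAT and 0 held both. CCAAT alone was common in both blocks, at 23 of 35 kinetochore and 19 of 25 spindle promoters, and TTGGCGC or TTCCCGC stood in 11 of the 35 kinetochore promoters.

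**Figure D3:**
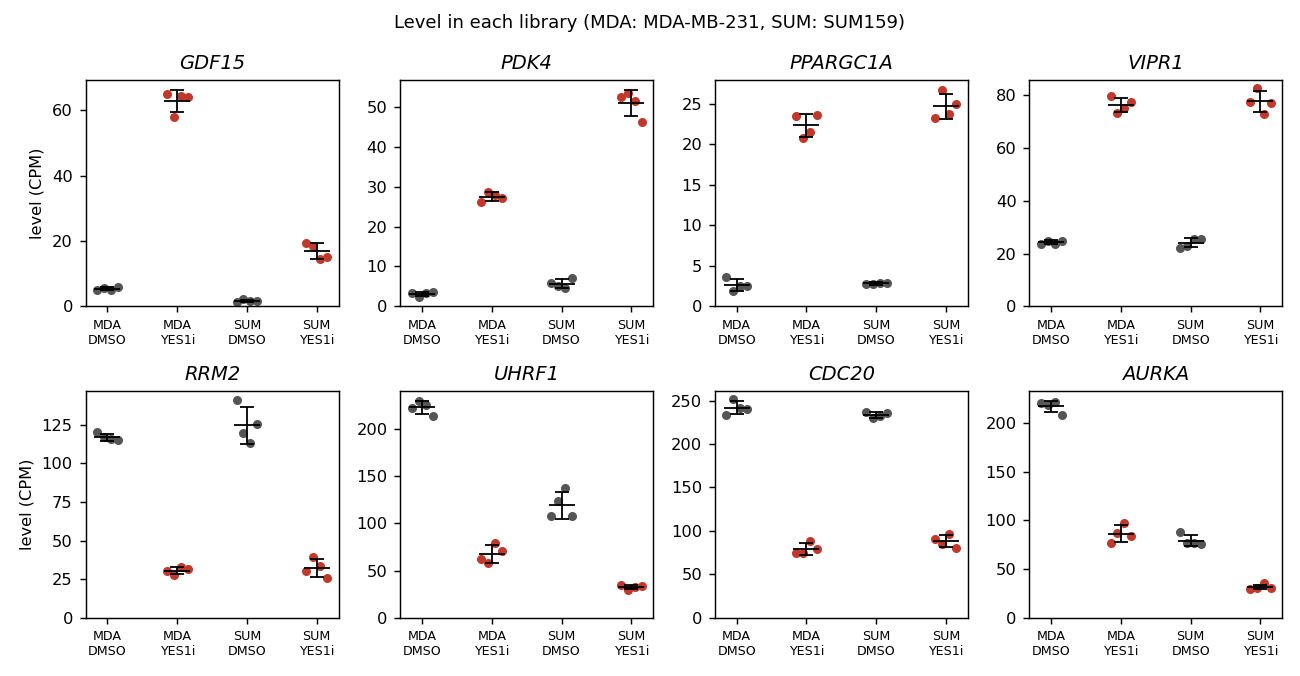
Level in CPM (y axis) of 4 shared higher and 4 shared lower genes in each of the 16 libraries, by line and treatment. Points are libraries, and bars are the mean with SD of 4. In all 8 genes the DMSO and YES1i libraries of a line lie apart, which for all but CDC20 was a condition of being named.

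Ribosome biogenesis genes gave smaller falls of like size in both lines. Of 26 tested, 19 were shared and lower, beside 9.38% of all tested genes, with a median change of -0.46 log2 in MDA-MB-231 and -0.41 in SUM159. BOP1, a nucleolar factor of the large ribosomal subunit, fell by 0.77 log2 on average, with an interval of the difference of -0.47 to 0.26; it was still shared in 13 of 25 other settings. Of 41 ribosomal protein genes, 3 were shared, all higher, a share near the 5.19% of all tested genes, and the count ran from 0 with upper quartile scaling to 6 over the other settings. For 35 of the 41 the difference between lines was called. Most glycolysis and respiratory chain genes were not shared. Among 28 glycolysis and hypoxia genes, 6 were shared, all lower and all glycolytic: HK1, GPI, PFKP, TPI1, PGAM1 and LDHA. Without the second YES1i library of SUM159, 2 members of the list were shared and higher beside 6 lower. PGAM1, phosphoglycerate mutase, fell from 698 ± 7.82 CPM (SD, n = 4) to 439 ± 10.0 in MDA-MB-231 and from 495 ± 21.3 to 306 ± 23.5 in SUM159. UQCRFS1, the Rieske iron-sulfur subunit of complex III, fell by 0.32 log2, 1 of 7 shared falls among 35 respiratory chain genes, a count that ran from 4 to 11 over the other settings.

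Some microtubule and surface genes were also among the shared falls, beside 9.38% of all tested genes. Of the lists below, the epithelial (8.33%), BCL2 family (6.67%) and NF-kB (4.35%) lists had no larger a share than that. STMN1, stathmin, which destabilises microtubules, went from 506 ± 17.2 CPM (SD, n = 4) to 237 ± 18.6 in MDA-MB-231 and from 363 ± 11.8 to 142 ± 11.2 in SUM159. With it, TUBA1B, TUBA1C, TUBB, TUBB6 and MAPRE1 were the shared falls among 22 tubulin and microtubule genes; alpha tubulin genes are near-identical, and how reads were split between them is not given in the sources used here. CTGF, a secreted matricellular protein and a target of YAP and TAZ, fell from 231 ± 5.99 CPM (SD, n = 4) to 112 ± 3.69 and from 111 ± 7.29 to 62.9 ± 5.79. It was 1 of 3 shared falls among 24 YAP/TAZ targets, of which MYOF was shared and higher, so the list as a whole was not shared. EPHA2, an ephrin receptor, fell by 0.63 log2 in MDA-MB-231 and 0.61 in SUM159. KRT18, a keratin of simple epithelia, fell by 0.56 and 0.57, the only shared member of 12 tested epithelial markers. TNFAIP2, a TNF-induced gene, fell by 0.40 log2 as the only shared member of 23 NF-kB and cytokine genes. BID, which links death receptors to mitochondria, fell by 0.47 as the only one of 15 BCL2 family genes. HSPD1, the mitochondrial chaperonin HSP60, fell by 0.53, 1 of 5 shared falls among 15 heat shock genes. That count was 1 with the replicate number as a block and 3 without the second YES1i library of SUM159.

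The largest shared rises were in GDF15, PDK4 and PPARGC1A, the only genes named here with changes above 2 log2 in both lines in the same direction. GDF15 (chr19:18374731-18389176), a stress-induced cytokine of the TGF-beta family, was at 4.94, 5.72, 5.13 and 5.97 CPM in the MDA-MB-231 controls and 64.8, 57.9, 64.2 and 64.1 under YES1i. In SUM159 it was at 1.29, 2.13, 1.51 and 1.70 CPM and 19.5, 18.6, 14.5 and 15.1. Every MDA-MB-231 library was above its SUM159 counterpart group, while the changes were close, at 3.53 ± 0.11 and 3.41 ± 0.15 log2, although the interval of -0.25 to 0.49 ended close to the bound and the gene was shared in 16 of 25 other settings. PDK4 (chr7:95583499-95596491), the kinase that shuts off pyruvate dehydrogenase, rose from 3.25, 2.45, 3.23 and 3.56 CPM to 26.2, 28.7, 28.0 and 27.2 in MDA-MB-231. In SUM159 it rose from 5.90, 5.16, 4.59 and 7.11 CPM to 52.6, 53.5, 51.6 and 46.3, a change of 3.16 log2 beside 3.13. It was shared in all 25 other settings. PPARGC1A (chr4:23755041-23904089), which encodes the coactivator PGC-1alpha of mitochondrial and fasting genes, went from 3.63, 1.91, 2.52 and 2.55 CPM to 23.4, 20.8, 21.5 and 23.7 in MDA-MB-231 and from 2.72, 2.71, 2.94 and 2.94 to 23.2, 26.7, 23.8 and 25.0 in SUM159. Levels of this gene were alike in the 2 lines on both sides of treatment.

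VIPR1 (chr3:42489299-42537573), a receptor for vasoactive intestinal peptide, was nearly the same in both lines throughout. It was at 23.7, 24.9, 23.5 and 24.8 CPM and 79.6, 73.3, 75.2 and 77.4 under YES1i in MDA-MB-231, and at 22.2, 23.0, 25.4 and 25.6 CPM and 77.5, 82.8, 72.9 and 77.2 in SUM159. The changes were 1.66 ± 0.06 and 1.69 ± 0.06 log2. CREBRF, a negative regulator of the stress factor CREB3, changed by 1.53 and 1.52 log2 from a higher control level in MDA-MB-231, at 18.5 ± 0.271 CPM (SD, n = 4), than in SUM159, at 8.59 ± 1.24. SEZ6L2 changed by 1.10 and 1.10 log2, with an interval of the difference of -0.18 to 0.19. SEZ6L2 and, beside its large rise, CREBRF were picked for a small difference between lines. LTBP1, which stores latent TGF-beta in the matrix, rose from 40.6 ± 1.38 CPM (SD, n = 4) to 122 ± 1.81 in MDA-MB-231 and from 4.30 ± 0.553 to 11.2 ± 1.82 in SUM159. VASN, a membrane protein that binds TGF-beta, rose by 1.37 and 1.42 log2. PTGES, prostaglandin E synthase, rose by 1.31 and 1.51. YPEL3, a growth-restraining gene of the yippee family, rose by 1.52 log2 on average and was shared in 16 of 25 other settings, and UAP1L1, a relative of the enzyme that makes UDP-N-acetylglucosamine, rose by 1.43.

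The promoter of CREBRF is printed as that of a rise with almost equal size in both lines. It covers the 250 bases before the start, from RefSeq, GRCh38.p14, chr5:173056102-173056351, plus strand. Capitals mark the E-box word TCACGTG and CCAAT on either strand, at -129, -93, -66 and -14.
CREBRF: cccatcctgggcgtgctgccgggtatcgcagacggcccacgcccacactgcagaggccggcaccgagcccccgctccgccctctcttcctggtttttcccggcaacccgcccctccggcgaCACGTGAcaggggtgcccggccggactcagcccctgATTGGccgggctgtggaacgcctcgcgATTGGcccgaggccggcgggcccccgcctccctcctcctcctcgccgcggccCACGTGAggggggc
TCACGTG, an E-box that MiT/TFE factors can bind, stood in 3 of the 30 promoters found for 35 autophagy genes. It stood in 651 of the 11484 found for tested genes (5.67%; 65.1% of tested genes had one). In all 27305 promoters of the table it stood in 1043 (3.82%). For shared higher genes as a class, 730 of 915 had a promoter in the table (79.8%), under the 80% set for the share of a class or list, so none is given.

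Rises were spread over many lists, with few members in each. Among 35 autophagy and MiT/TFE genes, 22 were called higher for the mean effect and 7 were shared, beside 29.6% of all tested genes called higher and 5.19% shared and higher. These 7 were GABARAPL1, FLCN, FNIP1, FNIP2, MAP1LC3B, ULK1 and ATG14, and the count ran from 7 to 11 over the other settings. GABARAPL1, which coats autophagosomes, rose from 20.4 ± 1.18 CPM (SD, n = 4) to 36.4 ± 3.69 in MDA-MB-231 and from 11.5 ± 0.735 to 23.3 ± 1.15 in SUM159. FLCN, folliculin, which with FNIP1 controls lysosomal signalling, changed by 0.89 and 0.94 log2. Lysosomal enzymes themselves were mostly not shared. Of 37, 31 were called higher for the mean effect, but for 32 the difference between lines was called, and only 2 were shared. The leading one, MANBA, a lysosomal mannosidase, rose by 0.81 log2 in MDA-MB-231 and 0.60 in SUM159. Of 19 genes of the lysosomal proton pump, 1 was shared in each direction: ATP6V1G1 rose by 0.44 and 0.37 log2, and ATP6V0E2 fell by 0.43 and 0.26.

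A few stress genes were shared, beside 5.19% of all tested genes shared and higher and 9.38% shared and lower. Of 22 genes of the integrated stress response, GDF15, ATF4, CEBPB and VLDLR were shared and higher, and for 13 of the 22 the difference between lines was called; the count of shared rises ran from 3 to 7 over the other settings. ATF4, the central factor of that response, changed by 0.56 and 0.68 log2, and CEBPB by 0.94 and 0.72. Of 18 endoplasmic reticulum chaperones, 4 were shared and higher and 2 shared and lower, the latter near the share of all tested genes. The list as a whole leaned to falls. For the mean effect 11 were called lower and 6 higher, beside 26.4% and 29.6% of all tested genes. In both lines 10 were called lower and 4 higher, so most of these falls were outside the bound. DNAJB9, a co-chaperone of the unfolded protein response, rose by 0.78 and 0.59 log2, while HYOU1 was at -0.64 and -0.71. OSGIN1, a target of NRF2, rose by 0.74 log2 as the only shared member of 15 (6.67%), near the share of all tested genes. ALDH1A3, a retinaldehyde dehydrogenase, rose by 0.44, 1 of 2 shared among 8 targets of the aryl hydrocarbon receptor. In MDA-MB-231 its groups overlapped, at 5.29 to 8.94 CPM in DMSO and 8.28 to 9.79 under YES1i. It was shared in 23 of 25 other settings. PHLDA3, a p53 target that restrains AKT, rose by 0.84, and CDKN1B, the CDK inhibitor p27, by 0.36, 2 of 3 shared rises among 25 CDK inhibitors and p53 targets; MDM2, a p53 target too, was shared and lower.

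Of 26 genes for fatty acid synthesis and oxidation, 5 were shared and higher, and 11 were called in opposite directions. Over all tested genes the shares were 5.19% and 5.17%. The 5 were PDK4, the fatty acid oxidation enzyme genes ACADVL, HADHA and HADHB, and PNPLA2, a triglyceride lipase gene. NR1H3, the oxysterol receptor LXR-alpha, rose from 14.7 ± 1.15 CPM (SD, n = 4) to 29.1 ± 1.03 in MDA-MB-231 and from 7.82 ± 0.631 to 15.1 ± 1.19 in SUM159. LBR, a nuclear envelope protein with sterol reductase activity, fell by 0.45 and 0.62 log2. The sterol pathways around them did not share a direction: 19 of 22 cholesterol synthesis genes were called in opposite directions, with LBR as the only shared member. Of 14 cholesterol uptake and export genes, 8 were called in opposite directions. In that list 1 gene was shared and higher, NR1H3, and 1 shared and lower.

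Of 37 matrix genes, 4 were shared and higher and 3 shared and lower, beside 5.19% and 9.38% of all tested genes. Without the second YES1i library of SUM159, 2 were shared and higher. COL6A1 and COL6A2, chains of collagen VI, rose by 1.00 and 1.03 log2 in MDA-MB-231 and by 1.27 and 1.05 in SUM159, with TIMP2 and ZEB1 the other shared rises. THBS1 and PLAU were among the shared falls of that list. TPM2, a tropomyosin, went from 13.7 ± 1.40 CPM (SD, n = 4) to 21.3 ± 2.67 in MDA-MB-231 and from 329 ± 10.3 to 492 ± 26.9 in SUM159, a like relative change from very different levels. PTK2B, the focal adhesion kinase relative PYK2, rose by 0.49 log2. Of 26 Src and focal adhesion partners, 3 were shared and higher and 5 shared and lower, and the first count ran from 2 to 5 over the other settings. STAT2, a transducer of type I interferon signals, rose by 1.17 and 0.95 log2 as the only shared rise of 33 interferon genes. NFIL3, a clock-linked repressor, rose by 0.70 as the only shared gene of 19 clock genes. KDR, the VEGF receptor, rose by 0.83 at levels of at most 18.5 CPM in any library, the only shared one of 9 tested vessel and fibroblast markers, and was shared in 20 of 25 other settings.

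**Figure D4:**
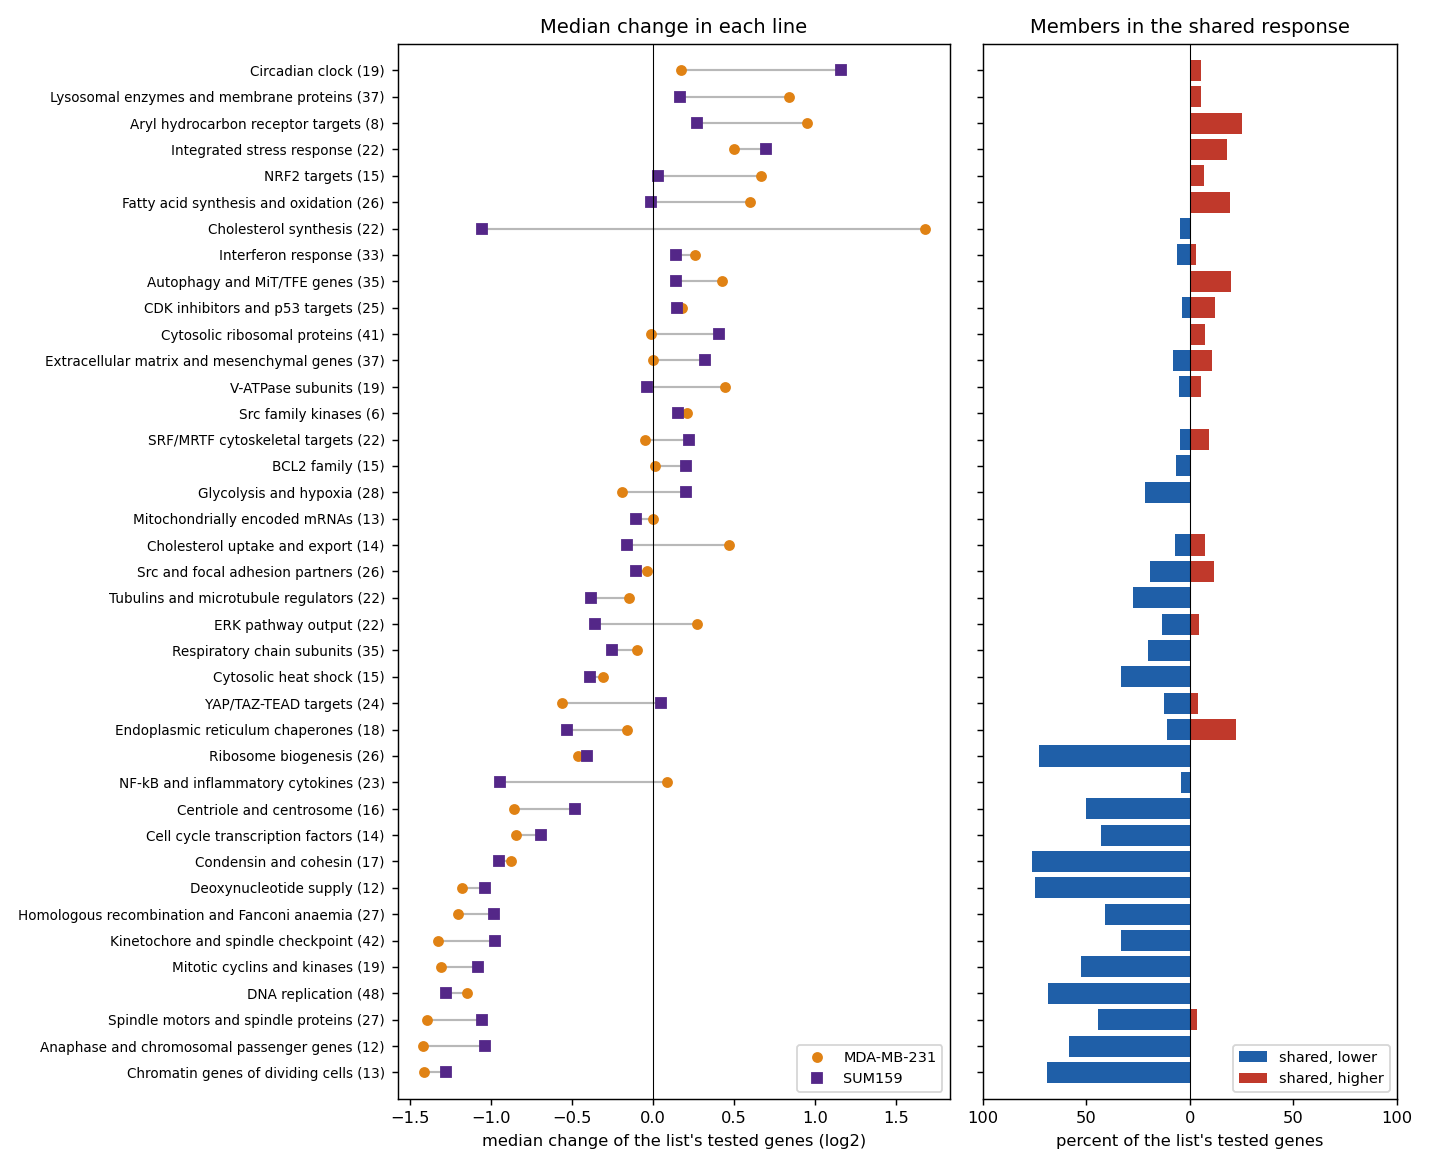
Left, median change of each gene list in MDA-MB-231 (circles) and SUM159 (squares), in log2, with the number of tested genes beside its name. Right, percent of each list's tested genes that were shared and lower (blue) or shared and higher (red). Blue bars reach 50% in 8 lists, all of division, replication, chromosome structure or ribosome biogenesis, while the medians of cholesterol synthesis lie on opposite sides of 0.

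By the deposited factor families, transcription factors made up 9.95% of shared higher genes and 4.65% of shared lower genes, beside 6.64% of tested genes. Of all 1172 factors, 7.76% were shared and higher and 6.57% shared and lower, beside 5.19% and 9.38% of tested genes. The 537 C2H2 zinc finger genes were close to all factors for rises, at 7.45%, with 2.98% shared and lower. Of 40 ZBTB genes, 6 were shared and higher and 0 shared and lower, and of 33 HMG genes, 1 and 9. These families were looked at after the values were seen. Of 3848 tested genes that are not protein-coding, 35 were shared and higher and 15 shared and lower. CCDC18-AS1 had the largest such rise, from 5.95 CPM ± 0.840 (SD, n = 4) to 15.6 ± 2.55 in MDA-MB-231 and from 10.9 ± 0.363 to 26.1 ± 3.10 in SUM159. AC099850.3, an antisense gene, had the largest such fall, at -1.29 and -1.11 log2. The mitochondrial 16S ribosomal RNA, MT-RNR2, was itself shared and higher, at 1.22 and 0.92 log2, while 0 of 13 mitochondrial messenger RNAs were shared.

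The 4 named opposite genes mark where sharing ended. HMGCS1 (chr5:43289395-43313512), which feeds the mevalonate pathway, went from 41.5, 37.1, 40.7 and 37.4 CPM to 306, 345, 324 and 342 in MDA-MB-231 and from 367, 300.1, 341 and 344 to 41.2, 39.0, 37.9 and 41.4 in SUM159. Its mean effect was -0.01 log2 and uncalled (edgeR adjusted p = 0.93), the mean of a rise of 3.07 and a fall of 3.08. LIPG, endothelial lipase, rose by 2.12 log2 in MDA-MB-231 and fell by 3.27 in SUM159. ABCA1, the cholesterol exporter, fell by 3.13 and rose by 1.78, and LAPTM5, a lysosomal membrane protein, fell by 1.05 and rose by 1.10. They were named for being opposite, so their values are a description.

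**Figure D5:**
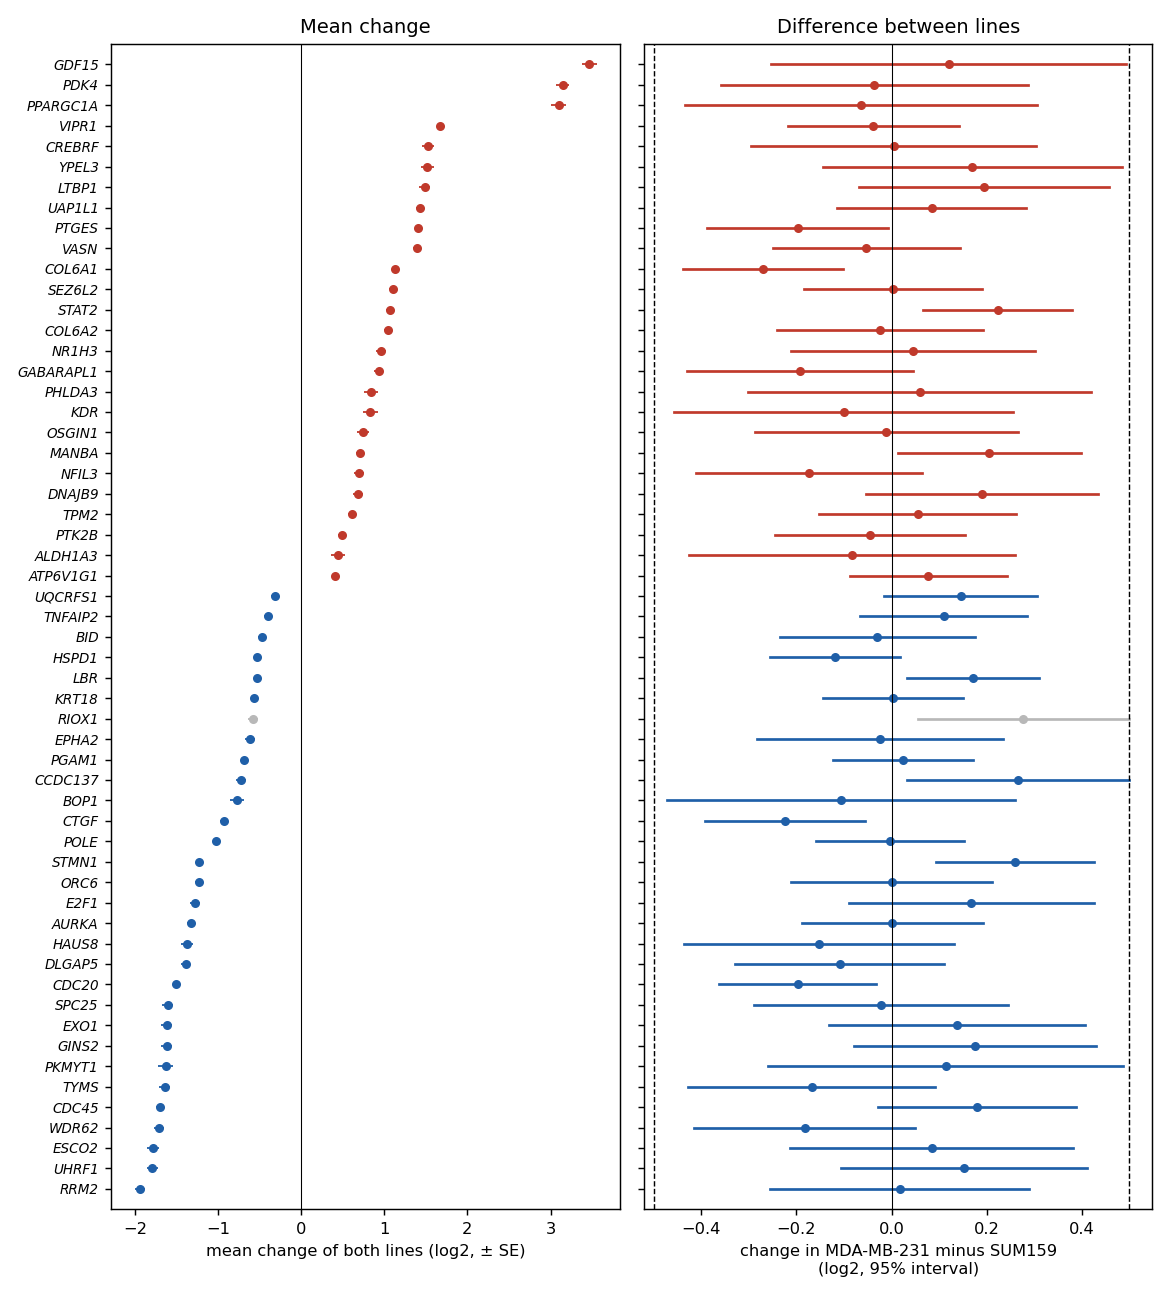
Left, mean change of both lines (log2, bars are SE) for the named shared genes, higher in red and lower in blue, with RIOX1 in grey as the gene just outside. Right, change in MDA-MB-231 minus change in SUM159 with its 95% interval, and dashed lines at the bound of 0.5 log2. All coloured intervals lie within the bound, and those of GDF15, PKMYT1 and CCDC137 end close to it.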

How the data were processed

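The members and gene lists were chosen with earlier results of these data known. Libraries were made from poly-A RNA with random-hexamer priming, per the labels' protocols, which name both a directional and a non-directional variant. The authors deposited gene-level read counts of the 16 libraries in 1 table, which also has gene lengths, not used in any test. HISAT2 2.0.5, hg38 and featureCounts 1.5.0-p3 stand, without role or order, in the submitters' processing notes. How strand, overlaps and multi-mapping were handled is not given in the sources used here. Of 66 named genes, 12 overlap a gene with at least 10% of their counts (BLK, VASN, ESCO2, TYMS, PKMYT1, GINS2, SPC25, NR1H3, ALDH1A3, DNAJB9, KRT18 and CCDC137), and their reads cannot be told apart here.

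Of 58735 genes, 17647 passed edgeR's filterByExpr with the 4 groups. The deposited counts entered edgeR 4.0.16 with TMM factors and its robust quasi-likelihood F test. This was 1 model with group means over the 16 libraries and no replicate block, run under R 4.3.3 with limma 3.58.1. P-values were adjusted by Benjamini-Hochberg within each contrast. CPM are scaled with the TMM factors. Errors of log2 fold changes are quasi-likelihood standard errors, and intervals are 95%. The fit was tested on simulated data.

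Named genes were the 6 tested Src family kinases; the 10 largest rises and 10 largest falls among protein-coding shared genes with at least 5 CPM in each line and no overlap of groups; the 3 closest between lines in each direction among those changed 2-fold in each line; the leading shared gene of each list, 1 of which is not reported here; 2 opposite genes in each direction; and the genes next to the bound. Other members of lists are named after their values were seen. There were 43 lists with 935 symbols, 909 of them tested, and they hold 249 of the 2570 shared genes. No list was tested.

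The numbers of same-numbered libraries did not pair them: over 8 pairs of 1 line, correlations of deviations from group means ran from -0.296 to 0.0137. Promoters came from RefSeq (GRCh38.p14), 1 per gene, the first listed, for 11484 of the tested genes. Alternatives were limma-voom, DESeq2 1.42.0, RLE and upper quartile factors, no filter, a mean count of at least 10, an adjusted p under 0.01, an additive model, the replicate block, other bounds and each library left out. A separate fit per line was added after seeing the data.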

Additional observations from a re-analysis of the deposited data

Results flagged for a closer look

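In 15 of 276 groups of 4 libraries (5.43%; chance gives about 1 in 20), 1 library lay far from the other 3. In MDA-MB-231 these were ORC6 in DMSO replicate 4 (30.2 CPM, the lowest), GDF15 in YES1i replicate 2 (57.9, the lowest) and DNAJB9 in YES1i replicate 4 (29.5, the highest). In SUM159 with DMSO they were ESCO2 (26, the lowest), AURKA (87.5, the highest) and MANBA (58.6, the highest) in replicate 1, ABCA1 in replicate 2 (5.49, the highest), POLE in replicate 3 (155, the highest) and SEZ6L2 in replicate 4 (27.7, the lowest). In SUM159 with YES1i they were SRC (72.5, the lowest) and PTGES (24.4, the lowest) in replicate 2, BLK (3.54, the lowest) and MANBA (90.6, the highest) in replicate 3, and ORC6 in replicate 4 (16.2, the lowest). The share of counts from mitochondrial ribosomal RNA was also highest in SUM159 YES1i replicate 2, at 1.48%.

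For 10 named genes the difference between lines, MDA-MB-231 minus SUM159, was called by edgeR's interaction contrast. Among shared genes the differences were small, at -0.22 log2 for CTGF, 0.22 for STAT2, -0.27 for COL6A1 and 0.26 for STMN1, so these moved the same way by amounts that differed detectably. The difference was called for 380 of the 2570 shared genes. FYN differed by -0.35 and LYN by 0.59. The opposite genes differed by 6.15 (HMGCS1), 5.39 (LIPG), -4.91 (ABCA1) and -2.15 (LAPTM5).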

How the results depend on the processing

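The bound for similarity moved the counts most. With a bound of 0.3 log2, 325 genes were shared and higher and 700 shared and lower, in place of 915 and 1655. With a bound of 1 log2, 1663 were shared and higher, and with the rule that the difference between lines is not called, 1489. At an adjusted p under 0.01, 545 genes were called in opposite directions in place of 912. Other counts of these classes over all genes stayed within 1.5 times those reported. Of 26 lists with at least 3 shared members in a direction, 9 had such a count move by more than 1.5 times in some setting. With 1 library left out at a time, calls of the mean effect ran from 5041 to 5237 higher and 4466 to 4677 lower, shared genes from 823 to 966 higher and 1523 to 1765 lower, and opposite genes from 804 to 939. With upper quartile scaling, 2671 genes were shared, 2006 of them among the 2570. The replicate block gave 786 shared and higher and 1439 shared and lower genes.

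Of 1716 values of 66 named genes under other settings, 1688 kept direction and call, and changes fell on 7 genes: YES1, FYN, LYN, BLK, LIPG, ABCA1 and LAPTM5, none of them shared. These values are of the mean effect; of 55 named shared genes, 39 stayed shared in all 25 other settings that give the class and 16 did not in some. LIPG turned from -0.58 to 0.16 log2 with the additive model (edgeR adjusted p = 0.883; over its settings the sign was otherwise the same). Of 43 list medians, 3 changed sign in some setting (cholesterol uptake and export, mitochondrial messenger RNAs and epithelial markers). The cause was not tested. Few genes of low count met the bound: 39 of the 2570 shared genes were under 5 CPM in a line. No change below the reported floors of CPM can be seen at this depth.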
